A study of Mus musculus with 16 samples.

Results

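The named genera of the Lachnospiraceae other than the NK4A136 group were followed in the colon of wild-type and Mertk-knockout mice, on water or on dextran sulfate sodium (DSS), a polymer that injures the colon lining. Members were all amplicon sequence variants (ASVs, distinct 16S rRNA gene sequences) that the deposited taxonomy placed in this family under a genus name other than Lachnospiraceae NK4A136 group. Of 1901 ASVs in the table, 119 met this rule. They fell into 21 genera, with 1 to 19 ASVs per genus and a median of 5, and held 3.90% of all counts. The NK4A136 group held 10.3% of counts in 79 ASVs, and ASVs of the family without a genus name held 14.7% in 385.

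Colon samples of 16 mice were compared, 4 in each of 4 groups. WT mice (wild type) and KO mice (MERTK knockout, lacking a receptor by which macrophages take up dying cells) were on a C57BL/6J background, were 8 to 10 weeks old and were kept free of specific pathogens. Control mice of both genotypes drank sterile water for 7 days, and treated mice of both genotypes drank 2.5% DSS for 7 days. The labels describe distal colon that was taken on day 8 and rinsed before extraction. Their extraction protocol is that of an mRNA library, so whether the 16S libraries came from the same material is unclear. If they did, the counts describe bacteria that stayed with the tissue. The labels name the groups WT, WT on DSS, MERTK-KO and MERTK-KO on DSS, and they do not give cages or litters. Genotype and cage therefore cannot be told apart, nor can treatment and cage, and 16S counts hold no measurement of Mertk itself.

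Lachnospiraceae are strictly anaerobic Clostridia of the mammalian large intestine that ferment plant fibre and sugars to short-chain fatty acids. Some of their genera, such as Roseburia and Anaerostipes, release butyrate, the main fuel of the colon epithelium, and others, such as Blautia and Marvinbryantia, can form acetate from hydrogen and carbon dioxide or formate. Many lineages of the family in mice have no cultured or formally named type and carry codes such as UCG-001 or A2.

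Every library held 96469 counts, so 1 count was 0.00104% and a count of 0 allows a share of up to 0.00311% (3 counts, counting error only). A share is a fraction of the library: fewer bacteria of a genus and more of the others cannot be told apart in it. Genera known as contaminants of reagents, such as Pseudomonas and Ralstonia, together held 0% to 0.0384% of a library. Of the members, 17 genera and 73 ASVs reached a total of 10 counts and were seen in 3 or more libraries. They were tested with edgeR's quasi-likelihood test and Benjamini-Hochberg adjustment over all 122 genus-level groups or all 1056 ASVs that passed this filter. The 4 genera that did not pass were Acetitomaculum (64 counts, all in KO water mouse 1), Dorea (2 counts), Lachnospiraceae UCG-004 (8 counts) and the [Eubacterium] oxidoreducens group (1 count). A difference was called at an adjusted p under 0.05, and "rose" and "fell" are used only of called differences between groups of separate mice. Against a group whose 4 mice all had no count, the fold was taken relative to 3 counts in each library, which makes it a bound, written "at least". An SE is the absolute log2 fold change divided by the square root of the test's F statistic, which makes it approximate. Mice are given in the order of their label numbers, which were not taken to link mice of different groups.

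The members together held the largest share of the library in KO mice on water. On water, WT mice had a summed share of 3.72%, 2.66%, 2.88% and 1.99% (mean 2.81% ± 0.713, SD, n = 4), and WT mice on DSS had 0.688%, 1.29%, 1.44% and 1.86% (1.32% ± 0.484). The KO mice had 5.85%, 14.1%, 7.01% and 9.09% on water (9.02% ± 3.65) and, on DSS, 1.89%, 2.61%, 3.61% and 1.63% (2.44% ± 0.888). In both genotypes every mouse on DSS lay below every mouse on water, and on water every KO mouse lay above every WT mouse. On DSS the genotypes overlapped. A sum over chosen members was not tested.

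**Figure D1:**
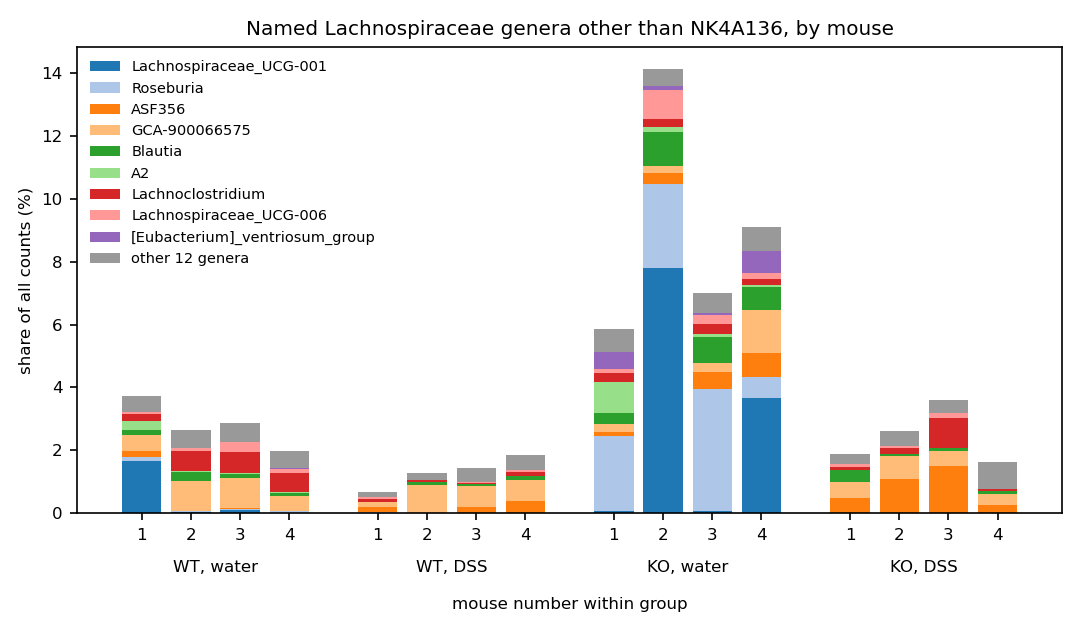
Share of all counts (%, vertical axis) held by the named Lachnospiraceae genera in each mouse (horizontal axis, 4 mice per group), stacked by genus. The 4 KO mice on water reach 5.85% to 14.1%, with Roseburia or Lachnospiraceae UCG-001 as the leading genus in each, and the 8 mice on DSS reach at most 3.61%.

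The mean share of the members within their own family put the 4 groups in the same order. They made up 9.32% to 13.0% of Lachnospiraceae counts in WT mice on water, 2.43% to 8.61% in WT mice on DSS, 14.4% to 33.1% in KO mice on water and 7.06% to 11.6% in KO mice on DSS. The family as a whole held 21.4% to 29.5%, 21.6% to 28.4%, 35.1% to 42.6% and 19.7% to 31.2% of counts in the same order of groups. In WT mice the family's range on DSS thus lay within its range on water while the members' share of it was lower in every mouse on DSS. Each WT mouse held 14 to 15 member genera on water and 10 to 12 on DSS, and each KO mouse 15 to 18 on water and 8 to 11 on DSS. Member ASVs numbered 37 to 43 and 42 to 46 per mouse on water in WT and KO mice, and 22 to 33 and 19 to 28 on DSS.

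Several genera had no count in the mice on DSS. Of the 21 genera, 8 had no count in any of the 8 mice on DSS: Lachnospiraceae UCG-001, A2, Marvinbryantia, the [Eubacterium] ventriosum group, the [Eubacterium] xylanophilum group, Tyzzerella, Acetitomaculum and Dorea. Tyzzerella, Acetitomaculum and Dorea were seen only in KO mice on water, so WT mice had none on water either. The same count over all genus-level groups was not taken, so 8 of 21 is not read as particular to the members. The most abundant of the 8, UCG-001, reached 7.79% in a mouse on water. The reverse, counts in mice on DSS and in no mouse on water, was seen only for UCG-004 and the [Eubacterium] oxidoreducens group, at 3 counts or fewer per mouse. Among ASVs, 53 of the 119 members were seen only in mice on water and 18 only in mice on DSS, against 610 and 430 of all 1901.

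**Figure D2:**
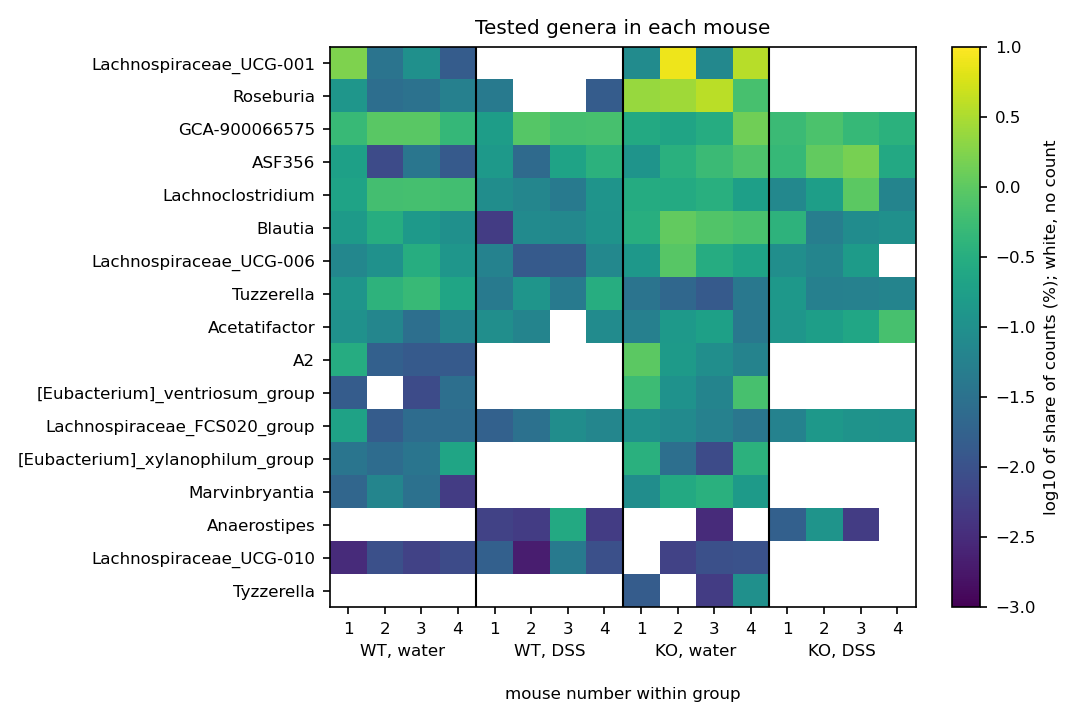
Share of counts of the 17 tested genera (rows) in each mouse (columns), as log10 of the percentage on a colour scale; white cells had no count. The rows of UCG-001, A2, Marvinbryantia, the [Eubacterium] groups and Tyzzerella are white in all 8 mice on DSS, while GCA-900066575, ASF356, Lachnoclostridium, Blautia, Tuzzerella and the FCS020 group have counts in all 16 mice.

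On DSS more of these genera fell than rose in both genotypes. In WT mice 6 of the 17 tested genera fell and 1 rose, where 20.5% and 11.5% of all genus-level groups fell and rose. In KO mice 9 of 17 fell, where 15.6% of all groups fell, and 0 rose, where 17.2% of all groups rose. One member was higher in KO mice on DSS at an unadjusted p under 0.05: Anaerostipes, which DESeq2 (adjusted p = 0.0243) and the TMM scaling (0.0441) called. With either of these alternatives 1 member rose and 8 fell in KO mice. The median log2 fold change on DSS was -1.35 over the 17 genera and -0.28 over all groups in WT mice, and -2.29 and 0 in KO mice. Both comparisons count genera with no reads on DSS, whose fitted values depend on the prior count of the fit. With these at their bound the medians over the 17 were -1.35 in WT and -2.23 in KO mice.

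Between genotypes on water more members were called higher than lower in KO mice. There 5 of 17 genera were called higher in KO mice and 1 lower, where 13.9% and 26.2% of all groups were called higher and lower. Of the 5, ASF356 (adjusted p = 0.0942) and Marvinbryantia (0.0973) were not called with the TMM scaling. Tyzzerella was not called without KO water mouse 4 (0.0506). Other alternatives added genera: DESeq2 called Blautia (0.00922). Limma on centred log-ratios called A2 (0.00567), Blautia (0.0109) and UCG-001 (0.0497) with a pseudocount of 0.5. The median log2 fold change, KO minus WT, was 1.93 over the members and -0.15 over all groups. On DSS 2 of 17 genera were called lower in KO mice, where 12.3% of all groups were, and 0 were called higher, where 8.2% of all groups were. Of those on DSS, 3 were higher in KO mice at an unadjusted p under 0.05, and 1 of these, Acetatifactor, was called by DESeq2 (adjusted p = 0.0433) and by limma on centred log-ratios (0.0404 with a pseudocount of 0.5). With DESeq2 the split on DSS was thus 1 higher and 2 lower, and with centred log-ratios it was 1 and 1. The comparisons share groups, so their counts are not independent.

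**Figure D3:**
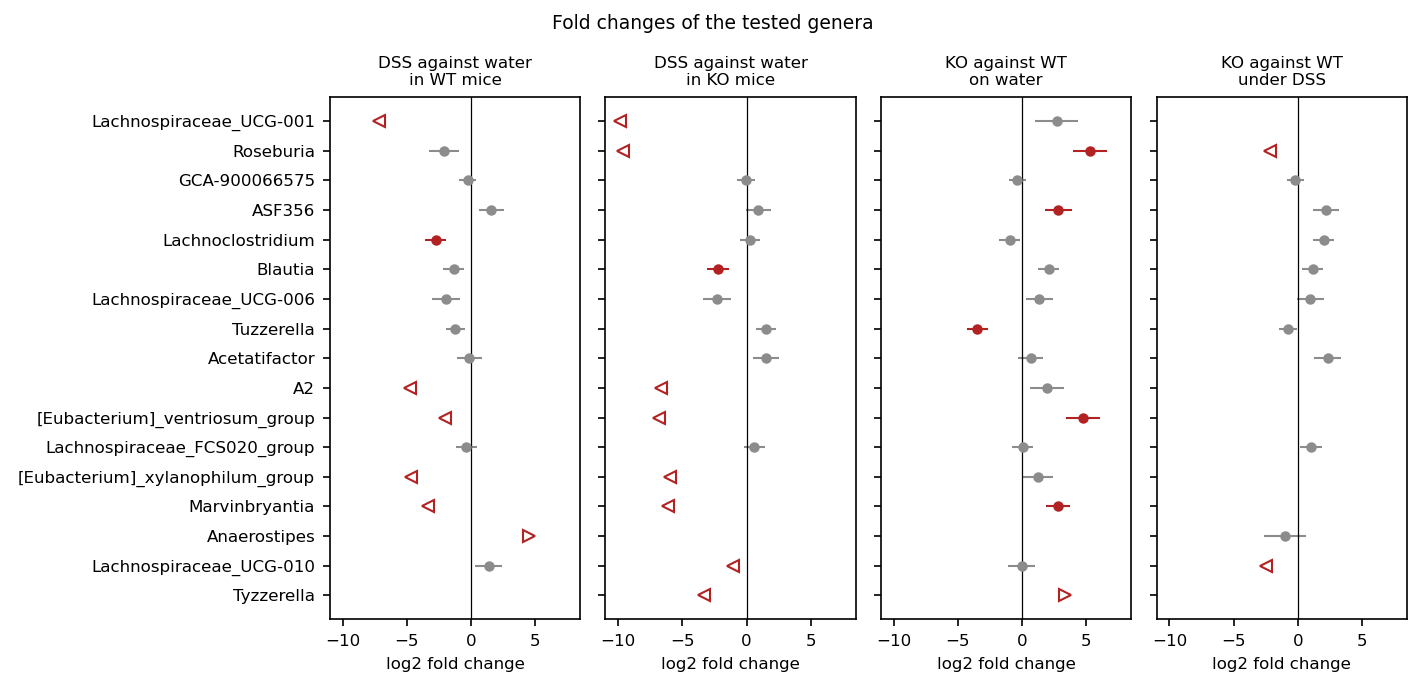
Log2 fold change of each tested genus in 4 comparisons (4 mice per group). Points are fitted values with approximate standard errors. Open triangles are lower bounds where 1 group had no count, and red marks genera past an adjusted p of 0.05. Left of 0 lie 6 of the 7 red marks for DSS in WT mice and all 9 for DSS in KO mice, and 5 of 6 lie right of 0 in the comparison of genotypes on water.

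Among the butyrate producers, Roseburia had the largest difference between genotypes on water and the largest bound for the lower share on DSS in KO mice. Roseburia are motile rods that ferment starch and xylan and live close to the mucus layer. It had 124, 27, 31 and 53 counts in WT mice on water and 2295, 2583, 3725 and 662 in KO mice on water, so that the lowest KO mouse lay above the highest WT mouse. The mean shares were 0.0609% ± 0.0466 and 2.40% ± 1.31 (SD, n = 4). The KO mice thus held 39.4-fold more (log2 fold change 5.30, SE 1.33, adjusted p = 0.008; 62.6-fold without WT water mouse 1).

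On DSS Roseburia was not seen in any KO mouse, and its counts in WT mice were 41, 0, 0 and 14. In KO mice it fell at least 772-fold (adjusted p = 0.00016). In WT mice its mean was 4.27-fold lower on DSS, with overlapping mice and an adjusted p of 0.208, while limma on centred log-ratios called it lower (0.0301 with a pseudocount of 0.5). The DSS effect differed between genotypes, with a log2 difference of -12.09, KO minus WT (SE 2.24, adjusted p = 0.00244). Since KO mice on DSS had no count, this size and its SE depend on the prior count of the fit. Between genotypes on DSS it was at least 4.58-fold lower in KO mice (adjusted p = 0.0167), although 2 of 4 WT mice also had no count. That call rests on few reads: the bound was 1.56 without WT DSS mouse 1, and the adjusted p was 0.0808 with centred log-ratios and 0.0645 when only the compared groups were fitted.

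The [Eubacterium] ventriosum group, named after a butyrate-forming species of the human gut, followed Roseburia on water. It had 14, 0, 8 and 28 counts in WT mice and 531, 105, 61 and 657 in KO mice, which did not overlap. KO mice held 27.1-fold more (log2 fold change 4.75, SE 1.30, adjusted p = 0.0165; 46.2-fold without WT water mouse 4). It fell on DSS to no count in either genotype, by at least 4.17-fold in WT mice (adjusted p = 0.0135; 2.44 without WT water mouse 4) and at least 113-fold in KO mice (adjusted p = 0.000837). In WT mice the groups overlapped at 0, since WT water mouse 2 had none.

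Anaerostipes, which turns lactate into butyrate, was the member that rose. A single variant, ASV536, made up the genus. It had no count in WT mice on water, 6, 5, 256 and 5 counts in WT mice on DSS, 0, 0, 3 and 0 in KO mice on water and 16, 114, 5 and 0 in KO mice on DSS. In each genotype 1 mouse held most of the reads. In WT mice it rose at least 22.7-fold on DSS (adjusted p = 0.0135), and without WT DSS mouse 3 the bound was 1.78 and the adjusted p 0.0722. As a single ASV its adjusted p was 0.0358, and it was above 0.05 without any 1 of 6 mice (0.0506 to 0.105). With the compared groups only it was 0.0577, and with a replicate block (mouse number added to the fit) 0.0658. In KO mice the adjusted p for DSS was 0.0597.

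Over the butyrate producers on the list of family genera that was used here (3 of its names were in the table), 1 rose and 1 fell on DSS in WT mice, where 11.5% and 20.5% of all groups did. In KO mice 2 fell, where 15.6% of all groups fell. On water 2 of 3 were higher in KO mice, where 13.9% of all groups were. Between genotypes on DSS 1 was lower in KO mice, where 12.3% of all groups were. With 3 genera these counts show nothing particular to butyrate producers. Of 6 tested butyrate-forming genera of other families, 1 fell on DSS in WT mice (Anaerotruncus, adjusted p = 0.00534), where 20.5% of all groups fell. In KO mice 1 rose (Odoribacter, adjusted p = 0.0171), where 17.2% of all groups rose. Between genotypes on water, Anaerotruncus (0.0165) and Intestinimonas (0.0195) were higher and Odoribacter (0.0314) lower in KO mice. Of all groups, 13.9% were higher and 26.2% lower there. On DSS Anaerotruncus was higher in KO mice (0.00123), where 8.2% of all groups were.

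Both acetogens, Marvinbryantia and Blautia, were tested: 1 fell on DSS in WT mice, where 20.5% of all groups fell, and 2 in KO mice, where 15.6% fell. On water 1 was higher in KO mice, where 13.9% of all groups were. With 2 genera these counts show nothing particular to acetogens. Marvinbryantia had no count on DSS in either genotype. Its counts were 20, 64, 30 and 5 in WT mice on water and 88, 260, 338 and 146 in KO mice on water, with no overlap between genotypes, and 0 in all 8 mice on DSS. It fell at least 9.92-fold in WT mice (adjusted p = 0.00187; 6.11 without WT water mouse 2) and at least 69.3-fold in KO mice (adjusted p = 0.000209). On water it was 6.99-fold higher in KO mice (0.0308% ± 0.0260 against 0.216% ± 0.116; log2 fold change 2.80, SE 0.92, adjusted p = 0.0338). This difference was not called with the TMM scaling (adjusted p = 0.0973). It was also not called without any 1 of WT water mice 1, 3 and 4 and KO water mice 2 and 3 (0.0557 to 0.086), and it was 11.3-fold without WT water mouse 2.

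Blautia, the other acetogen, had counts in all 16 mice. It had 147, 297, 139 and 97 counts in WT mice on water and 5, 79, 72 and 111 on DSS, and 315, 1046, 779 and 692 in KO mice on water and 370, 49, 84 and 99 on DSS. In KO mice it fell 4.70-fold on DSS (log2 fold change -2.23, SE 0.83, adjusted p = 0.0494). KO DSS mouse 1 lay within the range of the KO mice on water, and without it the fold was 9.16. The call is at the threshold: the adjusted p was 0.05 to 0.121 without any 1 of the other mice except WT DSS mouse 1 and KO water mouse 1. It was 0.131 with the replicate block, 0.0793 with the TMM scaling, 0.0576 with no filter and 0.0597 with traces set to 0. Traces are ASVs whose mean in 1 DSS group was under 5% of that in the other. On water Blautia was 4.16-fold higher in KO mice with no overlap but an adjusted p of 0.0577, while DESeq2 (0.00922), median-ratio size factors (0.0376) and centred log-ratios (0.0109 with a pseudocount of 0.5) called it.

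Of 8 lineages known by codes, 7 were tested. On DSS 2 of them fell in WT mice and 3 in KO mice, where 20.5% and 15.6% of all groups fell. Between genotypes 1 was higher in KO mice on water, where 13.9% of all groups were, and 1 lower in KO mice on DSS, where 12.3% were. Their median log2 fold change on DSS was -0.37 in WT mice, against -0.28 over all groups, and -2.29 in KO mice (-1.06 with lineages at 0 set to their bound), against 0. Lachnospiraceae UCG-001 held the largest share in any mouse. It had 1610, 33, 99 and 14 counts in WT mice on water and 81, 7516, 72 and 3530 in KO mice on water, and 0 in all 8 mice on DSS. The mean shares on water were 0.455% ± 0.810 in WT and 2.90% ± 3.67 in KO mice, with overlapping mice and an adjusted p of 0.249 (0.0497 with centred log-ratios and a pseudocount of 0.5). On DSS it fell at least 146-fold in WT mice (adjusted p = 0.0077; 16.2 without WT water mouse 1) and at least 933-fold in KO mice (adjusted p = 0.00288; 409 without KO water mouse 2). WT mice on water ranged from 14 to 1610 counts, and KO mice from 72 to 7516, while no mouse on DSS had any.

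A2, another coded lineage, showed the same pattern at a lower share. Its counts were 285, 16, 13 and 13 in WT mice on water and 955, 144, 92 and 59 in KO mice on water, with 0 in all 8 mice on DSS. It fell at least 27.2-fold in WT mice (adjusted p = 0.00559; 4.67 without WT water mouse 1) and at least 104-fold in KO mice (adjusted p = 0.00181; 32.8 without KO water mouse 1). On water the genotypes overlapped (adjusted p = 0.275), although limma on centred log-ratios called A2 higher in KO mice (0.00567 with a pseudocount of 0.5). The [Eubacterium] xylanophilum group, named after a xylan-degrading rumen species, had 34, 25, 34 and 220 counts in WT and 338, 28, 8 and 361 in KO mice on water, and none on DSS. It fell at least 26.1-fold in WT mice (adjusted p = 0.00427; 10.3 without WT water mouse 4) and at least 61.2-fold in KO mice (adjusted p = 0.00178), and it was 2.35-fold higher in KO mice on water with overlapping mice (adjusted p = 0.461). Of the 3 groups named after Eubacterium species, both that were tested thus fell on DSS in both genotypes. Of all groups, 20.5% fell in WT mice and 15.6% in KO mice. With 2 genera, of which the [Eubacterium] ventriosum group is also counted among the butyrate producers, these counts show nothing particular to the list.

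UCG-010 was the rarest coded lineage tested. It had 3, 9, 6 and 8 counts in WT mice on water, 16, 2, 41 and 9 in WT mice on DSS and 0, 6, 9 and 10 in KO mice on water, and none in KO mice on DSS. In KO mice it fell at least 2.08-fold on DSS (adjusted p = 0.0101), and on DSS it was at least 5.67-fold lower in KO than in WT mice (adjusted p = 0.00475; 3.00 without WT DSS mouse 3). Its DSS effect differed between genotypes by -7.04 on the log2 scale (SE 1.85, adjusted p = 0.0253), a size and SE that depend on the prior count. This call was lost without WT water mouse 3 (0.0542) or WT DSS mouse 3 (0.0567) and with the replicate block (0.0742). No mouse had more than 41 counts of this genus.

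ASF356, named after a strain of the altered Schaedler flora, a defined community of mouse gut bacteria, had counts in all 16 mice. It had 184, 8, 36 and 13 counts in WT mice on water, 136, 23, 199 and 358 in WT mice on DSS, 114, 338, 520 and 729 in KO mice on water and 462, 1064, 1451 and 251 in KO mice on DSS. On water KO mice held 7.06-fold more (0.441% ± 0.271 against 0.0625% ± 0.0864; log2 fold change 2.82, SE 1.03, adjusted p = 0.0388), although WT water mouse 1 lay within the KO range. The fold was 22.4 without that mouse. The adjusted p was 0.0518 to 0.0967 without any 1 of WT water mice 2, 3 and 4 and KO water mice 2, 3 and 4. It was 0.0942 with the TMM scaling, 0.0646 with the replicate block, 0.0528 with the compared groups only and 0.093 with traces set to 0. On DSS the KO mean was 4.51-fold higher, and this was not called (adjusted p = 0.105). In WT mice its mean was 2.97-fold higher on DSS (adjusted p = 0.243), and limma on centred log-ratios called that difference (0.038 with a pseudocount of 0.5).

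The remaining coded lineages were not called in any comparison. GCA-900066575, the genus with the most ASVs, held 0.710% ± 0.262, 0.594% ± 0.302, 0.542% ± 0.557 and 0.522% ± 0.157 of counts (SD, n = 4) in the WT water, WT DSS, KO water and KO DSS groups. Its fold changes between groups were 1.04 to 1.31. UCG-006 held 0.154% ± 0.110, 0.0407% ± 0.0314, 0.389% ± 0.354 and 0.0793% ± 0.0657 in the same order. Its means were 3.79-fold lower on DSS in WT mice (adjusted p = 0.206) and 4.91-fold lower in KO mice (0.123), and limma on centred log-ratios called the latter (0.045 with a pseudocount of 0.5). The FCS020 group held 0.0674% ± 0.0907, 0.0521% ± 0.0340, 0.0700% ± 0.0276 and 0.105% ± 0.0327.

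Of the other named genera, Lachnoclostridium fell on DSS in WT mice. It had 199, 625, 648 and 594 counts in WT mice on water and 88, 65, 41 and 113 on DSS, a 6.73-fold difference without overlap (log2 fold change -2.75, SE 0.83, adjusted p = 0.0166; 0.0518 without WT DSS mouse 3). In KO mice it had 276, 267, 320 and 176 counts on water and 70, 170, 936 and 61 on DSS, so that 3 of 4 mice on DSS lay below all mice on water and 1 above them. The 2 DSS effects differed by 3.00 on the log2 scale, KO minus WT (SE 1.12), which was not called (adjusted p = 0.106).

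Of the members, only Tuzzerella was called lower in KO than in WT mice on water. It had 118, 375, 478 and 220 counts in WT mice and 33, 21, 13 and 38 in KO mice, without overlap. KO mice held 11.3-fold less (log2 fold change -3.50, SE 0.80, adjusted p = 0.00304). On DSS the counts were 43, 117, 42 and 304 in WT and 129, 53, 56 and 61 in KO mice, which overlapped (adjusted p = 0.511). The difference of the DSS effects, 2.74 on the log2 scale (SE 1.04), was not called (adjusted p = 0.114).

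Tyzzerella was seen only in KO mice on water, with 14, 0, 5 and 100 counts. It was called at least 9.92-fold higher than in WT mice on water (adjusted p = 0.0288) and at least 9.92-fold higher than in KO mice on DSS (adjusted p = 0.0261). Both calls rest largely on KO water mouse 4: without it the bound was 2.11 and the adjusted p values 0.0506 and 0.0604. The first was also lost without WT water mouse 2 (0.0558), and the second without KO DSS mouse 3 (0.0524) and with DESeq2 (0.0551). Acetatifactor, whose type species was isolated from mouse caecum, held 0.0671% ± 0.0318 of counts in the WT water group, 0.0606% ± 0.0424 in the WT DSS group, 0.106% ± 0.0701 in the KO water group and 0.302% ± 0.253 in the KO DSS group. On DSS its KO mice were 4.99-fold higher without overlap (adjusted p = 0.0989).

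For 6 of the 17 genera the difference between the DSS effects in KO and WT mice could not be estimated from counts, because neither genotype had a read on DSS. Over the 17, the difference, KO minus WT, was called negative for 2, Roseburia and UCG-010, where it was for 4.1% of all groups. The UCG-010 mean was lower on DSS in KO mice and 2.62-fold higher in WT mice (adjusted p = 0.368 in WT mice). The difference was called positive by edgeR for 0 members, where it was for 4.92% of all groups, and 2 members had an unadjusted p under 0.05. These 2 were Lachnoclostridium and Tuzzerella.

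Genus totals do not show which ASVs carried a genus, so single ASVs were also compared. Of the 73 tested ASVs, 33 differed between genotypes on water, 18 higher and 15 lower in KO mice, where 20.8% and 32.0% of all tested ASVs were called. On DSS 9 were higher and 5 lower in KO mice, where 19.0% and 18.7% of all were. On DSS 4 rose and 7 fell in WT mice, where 7.86% and 9.0% of all rose and fell. In KO mice 1 rose and 8 fell, where 7.2% and 6.16% did. With DESeq2 the split was 5 higher and 4 lower in WT mice and 4 and 8 in KO mice. The DSS effect differed between genotypes for 1 ASV in each direction, where 3.12% and 2.46% of all were called. These counts were not tested against the shares over all ASVs and are not read as particular to the members. With 1 mouse left out, the counts ranged from 4 to 12 ASVs for DSS in WT mice, 4 to 11 for DSS in KO mice, 20 to 34 between genotypes on water and 6 to 14 on DSS. Counts for DSS were over 1.5 times lower without any 1 of WT water mice 1, 3 and 4 and WT DSS mice 1, 3 and 4 in WT mice (4 to 7). In KO mice they were so without any 1 of KO water mice 1 and 2 and KO DSS mice 1, 3 and 4 (4 to 5). Between genotypes they were so on water without KO water mouse 3 (20) and on DSS without any 1 of the 8 mice (6 to 9).

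Some ASVs were in all 4 mice of 1 group and in none of another. On water 7 members were in all KO and no WT mice, and 6 were in all WT and no KO mice, where 11.7% and 19.1% of all tested ASVs were. On DSS these numbers were 3 and 1, where 6.34% and 5.21% of all were. In WT mice 6 were in all 4 mice on water and in none on DSS, and 2 the other way round, where 7.67% and 4.73% of all were. In KO mice these numbers were 8 and 1, where 4.07% and 6.53% of all were.

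Roseburia in the 2 genotypes was made up of different ASVs. Of its 14 ASVs, on water 6 were seen in WT mice, 9 in KO mice and 1, ASV1215, in both. The overlap of the 2 mean makeups, the sum over ASVs of the smaller of the 2 within-genus shares, was 0.119%. The KO mice also differed among themselves: ASV99, ASV194 and ASV238 held 98.3% and 97.3% of Roseburia in KO water mice 2 and 3. In mouse 1, ASV189 and ASV393 held 97.4%, and in mouse 4, ASV535, ASV556 and ASV829 held 92.4%. The higher Roseburia share of KO mice on water was thus carried by 3 sets of ASVs, each leading in different mice.

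The 2 Roseburia ASVs with the highest mean share show the same. ASV99 had 43, 1385, 1981 and 0 counts in KO mice on water and none elsewhere, at least 284-fold above WT mice on water (adjusted p = 0.0163) and KO mice on DSS (0.0417). The bound was 159 without KO water mouse 3, with an adjusted p of 0.0354 against WT mice, and the call for DSS was lost without any 1 of 7 mice (0.0532 to 0.0936), with the compared groups only (0.0619) and with traces set to 0 (0.0643). ASV189 was in all 4 KO mice on water and in no other mouse, at least 149-fold above WT mice on water (adjusted p = 0.014) and KO mice on DSS (0.0375). Without KO water mouse 1 the bound was 8.67, with an adjusted p of 0.0203 against WT mice. The call for DSS was lost without any 1 of 5 mice (0.0515 to 0.0711), with the compared groups only (0.052) and with traces set to 0 (0.0535).

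**Figure D4:**
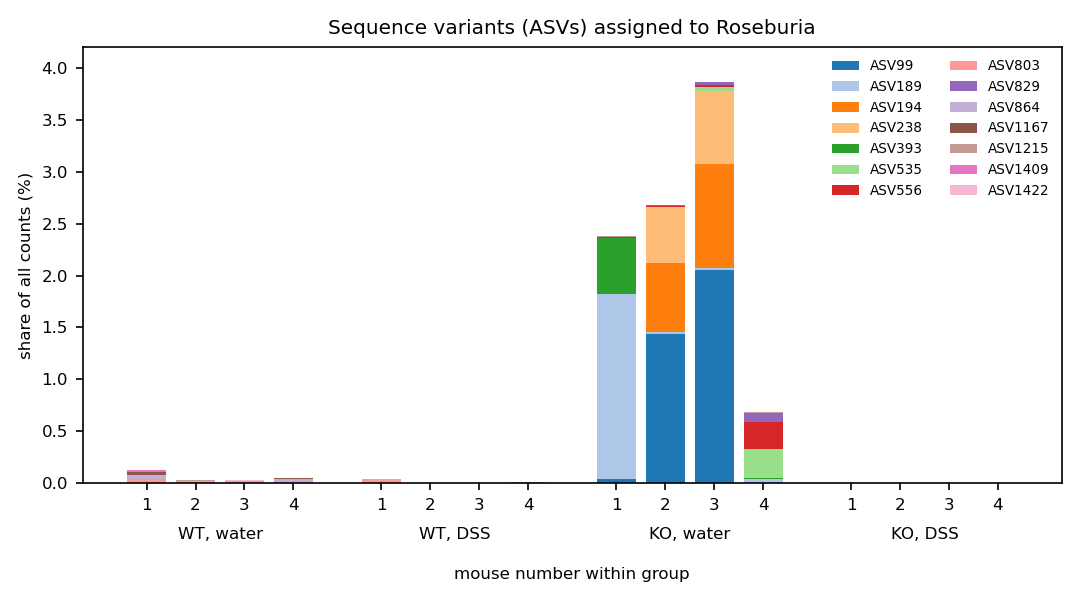
Share of all counts (%, vertical axis) of each of the 14 Roseburia ASVs in each mouse (horizontal axis, 4 mice per group), stacked by ASV. KO water mice 2 and 3 are led by ASV99, ASV194 and ASV238, mouse 1 by ASV189 and ASV393 and mouse 4 by ASV535 and ASV556, while no KO mouse on DSS has any.

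UCG-001 kept 1 leading ASV across genotypes and differed in the others. ASV27 had 702, 14, 47 and 7 counts in WT and 48, 6116, 57 and 2868 in KO mice on water and was absent on DSS, with bounds of 64.2 in WT mice (adjusted p = 0.0276) and 757 in KO mice (0.0133; 330 without KO water mouse 2). In WT mice the call was lost without WT water mouse 1 (bound 7.56, adjusted p = 0.0554) or any 1 of WT DSS mice 1, 3 and 4 (0.0507 to 0.0601). ASV166 was in the 4 KO mice on water alone, with 25, 1391, 15 and 599 counts, a bound of 169 against WT mice on water (adjusted p = 0.00929) and against KO mice on DSS (0.0244). The bound was 71.0 without KO water mouse 2, and the DSS call was then lost (0.0565), as it was without KO DSS mouse 3 (0.0517) or 4 (0.0512). ASV416 was in the 4 WT mice on water alone, with 545, 14, 19 and 7 counts, a bound of 48.8 against KO mice on water (adjusted p = 0.0182) and WT mice on DSS (0.0396). The bound was 4.44 without WT water mouse 1. The DSS call was lost without any 1 of 7 mice (0.0525 to 0.0768), with the replicate block (0.067) and with traces set to 0 (0.0525).

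The ASVs that led ASF356 differed between the WT groups and between genotypes on water. ASV626 held 98.3% of the genus in WT mice on water, with 184, 8, 36 and 9 counts, and was in no other group. ASV397 held 64.9% in WT mice on DSS, with 70, 0, 130 and 265 counts, and was in no other group. ASV79 held 90.1% and 81.5% of the summed counts in KO mice on water and DSS. Single mice went the other way: in KO DSS mouse 1 ASV79 had 23 of 462 counts and ASV347 had 392, and in WT DSS mouse 2 ASV79 had all 23 counts. The mean makeup overlapped by 90.0% between the KO groups, by 0% between the WT groups and by 1.66% between genotypes on water.

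ASV79 had 100, 325, 517 and 591 counts in KO mice on water and none in WT mice on water, a bound of 128 (adjusted p = 0.000157). On DSS it had 23, 1039, 1370 and 200 counts in KO and 16, 23, 23 and 18 in WT mice, a 32.9-fold difference (log2 fold change 5.02, SE 1.15, adjusted p = 0.00728; 21.0-fold without KO DSS mouse 3). The WT mean of 20.0 counts was 3.04% of the KO mean of 658, and the 4 WT mice differed little. Its DSS effect differed between genotypes by -6.57 on the log2 scale (SE 1.64, adjusted p = 0.0318), a size that depends on the prior count. The call was lost without any 1 of 7 mice (0.0511 to 0.0618). With such traces set to 0 neither WT group had a count, so the difference could not be estimated (fitted value 0.78, not called). Whether reads of other libraries took part in these counts was not tested.

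The other ASF356 variants named by size were called less firmly. ASV347 was in all 4 KO mice on DSS, with 392, 17, 64 and 46 counts, and in no WT mouse on DSS, a bound of 43.2 (adjusted p = 0.0349). That call was lost without any 1 of 7 of the 8 mice on DSS (0.051 to 0.0685), and the bound was 14.1 without KO DSS mouse 1. ASV397 was at least 38.8-fold higher in WT mice on DSS than in WT mice on water (adjusted p = 0.0447) or KO mice on DSS (0.0279). Those calls were lost without any 1 of 7 mice (0.0727 to 0.0881) and any 1 of 5 mice (0.0503 to 0.0574). The first was also lost with the replicate block (0.0736) and with traces set to 0 (0.0582). The bound was 22.2 without WT DSS mouse 4. For ASV626 the bound was 19.8 against WT mice on DSS (adjusted p = 0.0344), and 5.89 without WT water mouse 1. That call was lost with DESeq2 (0.0501), with the replicate block (0.107) and without any 1 of 6 mice (0.057 to 0.0659).

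Lachnoclostridium held 1 ASV with a crossed pattern. ASV178 had 117, 234, 67 and 447 counts in WT mice on water and 40, 60, 906 and 37 in KO mice on DSS, and none in the 4 WT mice on DSS or the 4 KO mice on water. Of all 1901 ASVs it was the only one seen in all 8 mice of those 2 groups and in none of the other 8. It fell at least 72.1-fold on DSS in WT mice (adjusted p = 0.00702; 46.4 without WT water mouse 4) and rose at least 86.9-fold in KO mice (adjusted p = 0.00643; 15.2 without KO DSS mouse 3). The genotypes differed in opposite directions on water (adjusted p = 0.00214) and on DSS (0.00357). The difference of the DSS effects was called (adjusted p = 0.00092), and its fitted size depends on the prior count since 2 groups were at 0. For comparison, 3 of the 1901 ASVs were in all 8 mice on water and no mouse on DSS, 1 of them a member (ASV27), and 24 were in all 8 KO mice and no WT mouse, 1 of them a member (ASV343).

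**Figure D5:**
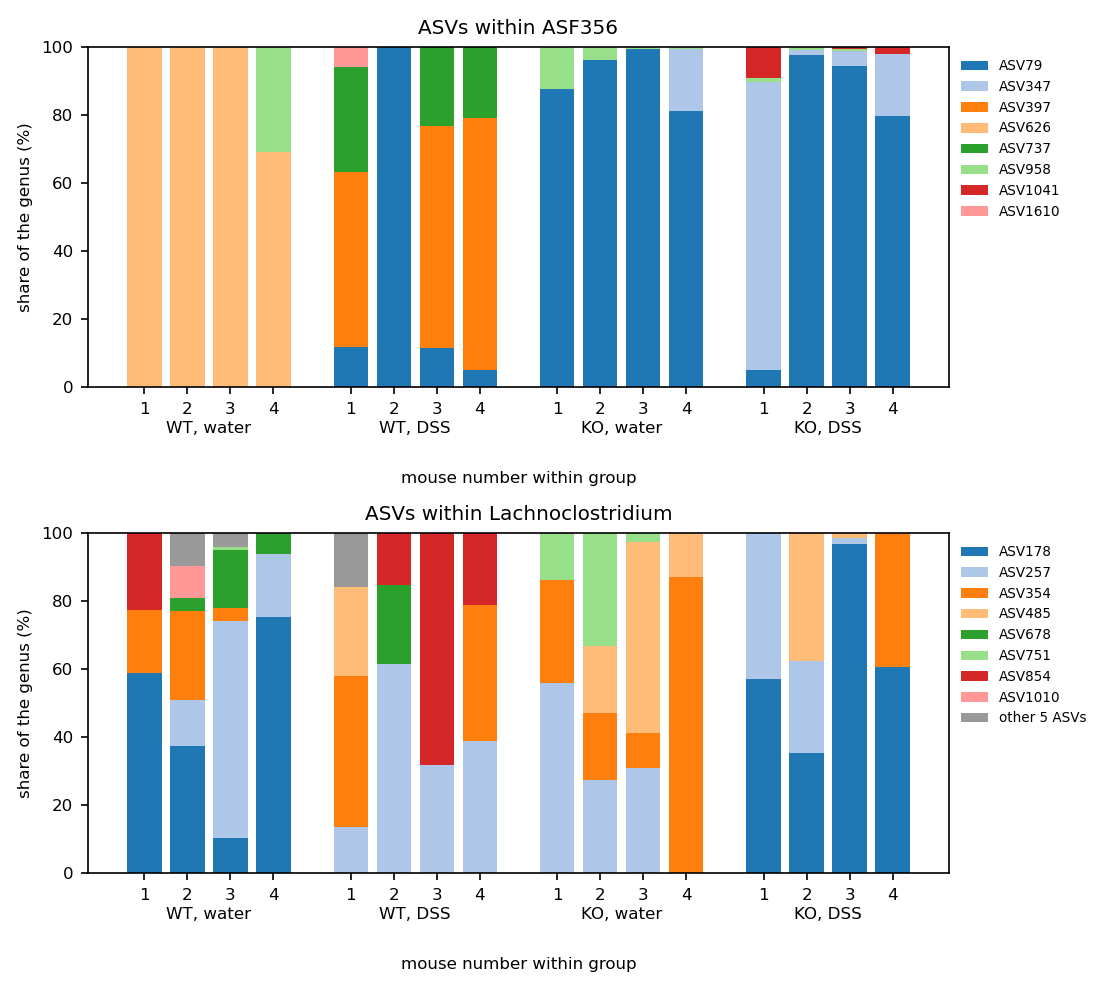
Share of each ASV within ASF356 (top) and within Lachnoclostridium (bottom), in % of the genus (vertical axis) for each mouse (horizontal axis, 4 mice per group). ASV626 fills ASF356 in WT mice on water and ASV79 does so in most KO mice, and ASV178 of Lachnoclostridium is present in WT mice on water and KO mice on DSS but in neither other group.

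Other ASVs named by size lay in 3 genera. ASV471 of UCG-006 had 47, 0, 147 and 88 counts in WT and none in KO mice on water, at least 23.5-fold lower in KO mice (adjusted p = 0.00823; 15 without WT water mouse 3), and it was in all 4 WT mice on DSS and no KO mouse. ASV260 of GCA-900066575 had 159, 10, 0 and 109 counts in WT and none in KO mice on water, at least 23.2-fold lower (adjusted p = 0.0181; 13.2 without WT water mouse 1), and centred log-ratios did not call it (0.0801 with a pseudocount of 0.5). ASV311 of the same genus had 0, 332, 129 and 102 counts in WT mice on DSS and none in KO mice on DSS, a bound of 46.9 (adjusted p = 0.0308) that was lost without any 1 of 6 mice (0.0504 to 0.0582) and was 25.7 without WT DSS mouse 2. ASV280 of Acetatifactor had 5, 130, 219 and 306 counts in KO mice on DSS against 0, 0, 0 and 7 in WT mice, with an overlap at the low end (adjusted p = 0.021).

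Over all genera with at least 2 ASVs and 20 counts in both groups, the makeup between genotypes on water overlapped by 0.119% to 91.6%, with a median of 40.7% over 13 genera. Roseburia was the lowest and Marvinbryantia, in which ASV294 held 96.2% and 91.6%, the highest. Between DSS and water the median overlap was 61.2% over 9 genera in WT mice and 41.9% over 7 in KO mice, and between genotypes on DSS it was 21.5% over 7. Blautia kept ASV279 as its leading ASV in both WT groups and in KO mice on DSS, and ASV169 led in KO mice on water with 60.0% of the genus. These overlaps have no test and rest on fewer genera on DSS, where several had no count.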

How the data were processed

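The authors deposited whole-number counts per ASV for 16 libraries, all with the same total of 96469. The original depth, the primers, the software that called ASVs and the reference behind their names were not given in the sources used here. An extraction protocol in the labels describes an mRNA library, a sample note gives paired reads of 250 bp and the series design names 16S sequencing, and whether the template was RNA or DNA is unclear. Equal totals remove depth differences but leave shares coupled.

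Counts were summed per genus (146 groups, ASVs without a genus under their lowest named rank). Features totalling 10 or more counts and seen in 3 or more libraries were tested with edgeR 4.0.16 (glmQLFit, robust=TRUE; glmQLFTest) in R 4.3.3. The library total was the only scaling, and all 16 libraries entered 1 fit with group means. The fit was also run on simulated counts in which no group was set to 0. That run was not built to check calls against a group with no count. P-values were adjusted by Benjamini-Hochberg at an FDR of 0.05. A count of 0 allows 3 counts of the total. Alternatives were TMM, median-ratio size factors, DESeq2 1.42.0 (Wald test), limma 3.58.1 on centred log-ratios (pseudocounts 0.5 and 1), no filter, counts in 6 libraries, a replicate block, only the compared groups, traces set to 0 (ASVs under 5% of the other DSS group's mean; 86 in WT and 84 in KO mice) and each mouse left out. P-values of the main fit set differences of group means against the spread between mice within groups. That spread was estimated jointly over the 4 groups and moderated across features.

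Members, lists and tests were chosen with earlier results of these data known. Every genus past the threshold and every genus with at least 0.1% of counts in a group mean is named; of ASVs, up to 4 per direction and pairwise comparison ranked by fitted change, past the threshold and holding 0.05% or more in 1 of the group means. ASVs named for presence or makeup were chosen after their values were seen. Lists held butyrate producers, acetogens, groups named after Eubacterium species, coded lineages and mucin users. Of the mucin users, 0 were in the table.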

Additional observations from a re-analysis of the deposited data

Results flagged for a closer look

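In 14 of 59 sets of 4 mice that were checked, 1 mouse lay far from the other 3 (its gap to the nearest exceeded the 95% critical value of Dixon's test). The 5% rate of that test holds for normally distributed values. Shares of counts need not be so distributed, so the 14 are listed as a description and not read as an excess. In WT water mouse 1, A2 held 0.295% of counts (others 0.0135% to 0.0166%), ASF356 0.191% (0.00829% to 0.0373%), UCG-001 1.67% (0.0145% to 0.103%) and the FCS020 group 0.203% (0.0145% to 0.0259%), while Lachnoclostridium was low at 0.206% (0.616% to 0.672%). In WT water mouse 4 the [Eubacterium] xylanophilum group held 0.228% (0.0259% to 0.0352%).

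In KO water mouse 1, A2 held 0.990% (0.0612% to 0.149%). In KO water mouse 4, GCA-900066575 held 1.38% (0.219% to 0.305%) and Tyzzerella 0.104% (0% to 0.0145%). On DSS, Anaerostipes held 0.265% in WT mouse 3 (0.00518% to 0.00622%) and 0.118% in KO mouse 2 (0% to 0.0166%). Blautia held 0.384% (0.0508% to 0.103%) and Tuzzerella 0.134% (0.0549% to 0.0632%) in KO DSS mouse 1, and Lachnoclostridium 0.970% (0.0632% to 0.176%) in KO DSS mouse 3.

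The DSS effect differed between genotypes for 4 features by the interaction test of edgeR. On the log2 scale, KO minus WT, the fitted difference was -12.09 for Roseburia, -7.04 for UCG-010, -6.57 for ASV79 of ASF356 and 21.77 for ASV178 of Lachnoclostridium. For Roseburia, UCG-010 and ASV178 at least 1 group had no count, and for ASV79 WT mice on water had none, so these sizes depend on the prior count of the fit.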

How the results depend on the processing

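Counts are small and many features have no read in a group, which limits how firmly single ASVs can be called. The median log2 fold change over all groups, KO against WT on water, was -0.15 with library totals, -0.53 with TMM, 0 with median-ratio size factors and 0.76 with centred log-ratios. Of 53 results for single genera and ASVs, the TMM scaling lost 3, each set of centred log-ratios 2 and no filter 1. Traces set to 0 lost 6 and the replicate block 7. Some settings gave no adjusted p for part of the 53. DESeq2 kept 46 and lost 2, and the compared groups only kept 44 and lost 5. Counts in 6 libraries kept 38 and gave no value for the others. With traces set to 0 the interaction of ASV79 was not called and could not be estimated, since neither WT group then had a count (fitted value 0.78). Median-ratio size factors lost 0 of the 53.

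Members called per comparison moved by over 1.5 times as follows. For ASVs with DSS in KO mice, 9 became 23 with centred log-ratios (either pseudocount), 16 with no filter and 5 with traces set to 0. With DSS in WT mice 11 became 7 with counts in 6 libraries. Between genotypes on water 33 became 17 with DESeq2 and 12 with counts in 6 libraries, and on DSS 14 became 9 with no filter and 9 with counts in 6 libraries. For the interaction 2 ASVs became 4 with DESeq2, 21 and 22 with centred log-ratios (pseudocounts 0.5 and 1) and 1 with traces set to 0. For genera, 2 became 1 on DSS between genotypes with the compared groups only, and 2 became 5 for the interaction with centred log-ratios of either pseudocount, which added Marvinbryantia, Tyzzerella and the [Eubacterium] ventriosum group. With traces set to 0, ASVs in all KO and no WT mice on DSS went from 3 to 5, and those in all WT mice on DSS and none on water from 2 to 1.

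With each mouse left out in turn, the ASVs called ranged from 4 to 12 (DSS in WT), 4 to 11 (DSS in KO), 20 to 34 (genotypes on water), 6 to 14 (genotypes on DSS) and 1 to 2 (interaction). The genera called ranged from 5 to 8, 7 to 9, 4 to 7, 2 to 3 and 1 to 3. For the interaction, WT water mice 2, 3 and 4, KO water mice 2 and 3 and KO DSS mouse 4 each left 1 ASV, and WT water mouse 3 and WT DSS mouse 3 each left 1 genus.

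Same-numbered mice did not deviate together (24 pairs, r from -0.094 to 0.071, 0 over 0.1), so the main fit treated them as unpaired. Whether same-numbered mice shared a cage or litter could not be checked. With the replicate block the ASVs called were 4 with DSS in WT mice, 20 between genotypes on water and 8 on DSS, and the genera called for the interaction were 1.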
